A study of Mus musculus with 272 samples.

Results

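Plat encodes tissue plasminogen activator, a secreted serine protease that cleaves plasminogen to plasmin. Its row is 1 of the 15771 genes kept from the deposited expression table of mouse oocytes and preimplantation embryos. It was chosen by name, with earlier results of these data known. The study compared 8 stages: germinal vesicle (GV) oocytes, which are arrested before maturation, metaphase II (MII) oocytes, which have matured and await fertilization, zygotes, 2-cell, 4-cell and 8-cell embryos, morulae and blastocysts. Each stage had 4 transcriptome libraries, made from pools of 20 oocytes or embryos, and 3 sucrose gradients, A, B and C, made from lysates of about 100 oocytes or embryos. Each gradient was cut into 10 fractions and each fraction was sequenced, which gave 240 fraction libraries beside the 32 transcriptomes. All lysates and gradients contained cycloheximide, which holds ribosomes on mRNA, all libraries were of polyadenylated RNA, and no other treatment, strain, sex or age is named in the labels. The labels number the fractions without naming the top of the gradient. Fractions 1 to 5 are called light and fractions 6 to 10 heavy here by convention, with mRNAs that carry many ribosomes taken to run in the heavy part.

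Fully grown oocytes make no new mRNA, so meiotic maturation and the first cell cycle run on transcripts stored earlier. Plat is a textbook case of such a dormant mRNA. It is kept with a short poly(A) tail in the GV oocyte, and on maturation cytoplasmic polyadenylation elements in its 3′ untranslated region (UTR) recruit the binding protein CPEB1 and a poly(A) polymerase, the tail is lengthened, and the mRNA is translated. The protein is secreted by the egg around fertilization. Since libraries were made from polyadenylated RNA, a change in the amount of Plat mRNA and a change in the length of its tail cannot be told apart in these values.

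The elements that make Plat a case of cytoplasmic polyadenylation lie near the end of its transcript, and they are shown because the position results below concern an mRNA of this class. In the GENCODE M21 annotation of the GRCm38 build, Plat lies on chromosome 8 and its first listed coding transcript has 14 exons and 2525 bases, with the start codon in exon 2 and the stop codon in exon 14. The 5′ UTR has 107 bases, the coding sequence encodes 559 residues and the 3′ UTR has 738 bases. Coordinates are not given because the authors' files were made with the GRCm39 build. Windows of 30 bases are printed 5′ to 3′ in the sense strand, with the motif in capitals. The motifs searched in the last 150 bases were TTTTAAT and TTTTAT on the sense strand, and the nuclear polyadenylation hexamer AATAAA or ATTAAA within the last 50 bases.
First element: gaactgtatgaTTTTAATaattgatgaata
Second element: gtatatttataTTTTAATctattttagttt
Hexamer: ctgtacttaaatAATAAAttcagaggtatt
The first TTTTAAT starts 125 bases from the transcript's end and leaves 89 bases before the hexamer. The second starts 89 bases from the end and leaves 53 bases before the hexamer. Among 9774 measured genes whose transcript ends with such a hexamer, 24.4% held at least 1 of the motifs in the same window, 5.03% held 2 or more, and 0.389% (38 genes, Plat among them) held 2 or more copies of TTTTAAT. A match of letters is a description and not a proven binding site.

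Plat mRNA was abundant in both oocyte stages and fell at each of the 3 steps from the MII oocyte to the 4-cell embryo. Values are CPM (reads of a gene scaled to a fixed library total), the share of a library's reads assigned to that gene. GV pools held 1556, 1874, 1500 and 2015 CPM, a mean of 1736 ± 249 (SD, n = 4). MII pools held 2078, 1964, 1793 and 1476 CPM, a mean of 1828 ± 262 (SD, n = 4). The pools of both oocyte stages overlapped, and the mean differed by less than the spread between pools. On the log2(CPM + 1) scale the GV to MII change was 0.07 with a standard error (SE) of 0.27, and it was not called by limma with Benjamini-Hochberg adjustment over all genes (adjusted p = 0.879). A gene is called here at an adjusted p under 0.05 and a log2 change of at least 1, and 34.5% of 14642 genes tested were called in this comparison, 9.11% higher and 25.3% lower in MII. The split of these calls moved with the scaling, from 1334 higher and 3711 lower to 3223 and 2590 with quantile normalization, 2865 and 4043 with edgeR, and 3426 and 3920 with DESeq2.

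Zygote pools held 284, 367, 235 and 399 CPM of Plat, a mean of 321 ± 75.1 (SD, n = 4), so that every zygote pool lay below every MII pool. The mean was 5.69-fold lower than in MII oocytes, a log2 change of -2.52 (SE 0.27, limma adjusted p = 4.4e-09), in a comparison where 4.48% of genes were called lower. The 2-cell pools held 33.5, 28.3, 25.6 and 23.9 CPM, a mean 11.6-fold below the zygotes, and the log2 change was -3.46 (SE 0.27, limma adjusted p = 2.26e-13). The 4-cell pools held 1.24, 4.25, 2.2 and 2.33 CPM, a mean 11.1-fold below the 2-cell embryos, with a log2 change of -3.10 (SE 0.27, limma adjusted p = 1.07e-12). The share of genes called lower was 8.71% at the zygote to 2-cell step and 32.9% at the 2-cell to 4-cell step, so the last of these falls came among many others. With quantile normalization 2206 genes were called higher and 2491 lower at the zygote to 2-cell step, against 3684 and 1275. None of the 3 falls lost its call with any left-out pool or any alternative processing that was run.

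From the 4-cell stage on, Plat was at a few CPM or less. The 8-cell pools held 2.16, 2.50, 3.45 and 3.64 CPM, the morula pools 4.51, 1.43, 1.64 and 1.22, and the blastocyst pools 1.97, 1.23, 0.422 and 0. The morula pool at 4.51 CPM stood apart from the other morula pools. In blastocyst libraries 3 reads, the most that a count of 0 allows, correspond to 0.125 to 0.183 CPM, so the lowest blastocyst pool lay at that limit. The 4-cell to 8-cell and 8-cell to morula changes were not called (limma adjusted p = 0.688 and 0.308, with 2.6% and 11.9% of genes called). The morula to blastocyst change was -0.77 on the log2(CPM + 1) scale (SE 0.27, limma adjusted p = 0.018), under the size required for a call (7.97% of genes were called lower, 1167 beside 2750 higher, against 2334 and 2316 with edgeR). On this scale low levels understate a fold, and the same step was called with edgeR on recovered reads (-1.47, adjusted p = 0.00844). Ordered by mean level, the stages were MII, GV, zygote, 2-cell, 8-cell, 4-cell, morula and blastocyst. MII and GV did not differ beyond their spread. Among the last 4 stages, the pools of neighbours in this order overlapped, while every 8-cell pool lay above every blastocyst pool.

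**Figure D1:**
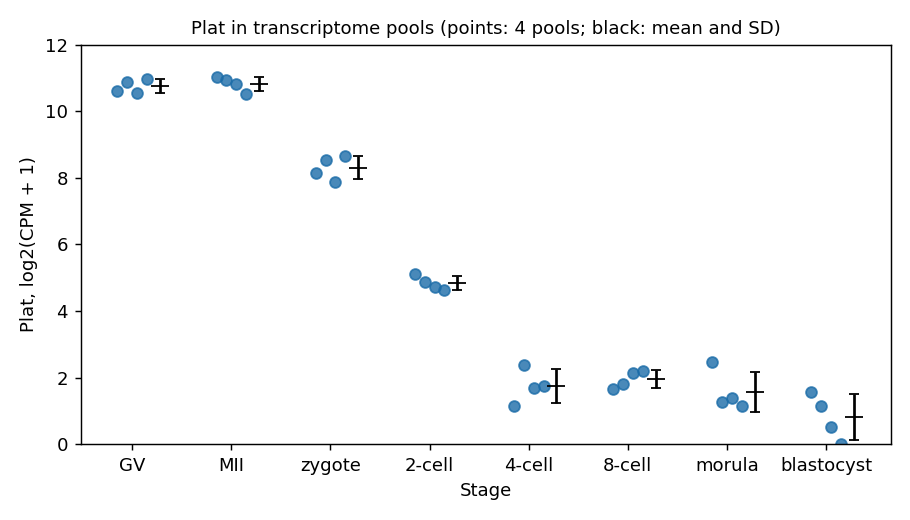
Plat in the transcriptome pools of 8 stages, as log2(CPM + 1) on the y axis; blue points are the 4 pools of a stage and the black mark is their mean with the SD. GV and MII pools overlap near a mean of 1736 and 1828 CPM, zygote pools lie between 235 and 399 CPM, and pools from the 4-cell stage on lie at or below 4.51 CPM.

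Along the gradient the profile of Plat had another shape in MII than in GV oocytes, while the transcriptome pools of both stages overlapped. The fits over all genes given below did not call this GV to MII shift. In all 3 GV gradients the highest Plat value was in fraction 4, among the light fractions. In gradient A fractions 1 to 10 held 1433, 179, 2640, 5355, 3049, 1523, 1844, 1715, 1647 and 3941 CPM. In gradient B they held 2319, 227, 3281, 4195, 4193, 2353, 2719, 2880, 1319 and 3332 CPM. In gradient C they held 1238, 57.7, 4951, 7216, 6775, 3380, 2276, 1743, 1953 and 3011 CPM. Plat was thus frequent throughout the GV gradient, with a light peak in fractions 3 to 5, a shoulder in fraction 10 and a trough in fraction 2. The values of fraction 1 in gradients A and B rest on libraries under 100000 reads, and the one in A on 15 reads of Plat.

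In MII oocytes the same mRNA was concentrated at the heavy end. In gradient A fractions 1 to 10 held 171, 129, 271, 304, 258, 403, 367, 838, 1670 and 340 CPM. In gradient B they held 207, 146, 292, 368, 282, 260, 479, 782, 1492 and 6450 CPM. In gradient C they held 289, 138, 379, 579, 396, 848, 395, 1368, 2653 and 4247 CPM. Plat was higher in each fraction than in the one before from fraction 7 to fraction 9 in all 3 gradients. It was highest in fraction 10 in gradients B and C and in fraction 9 in gradient A. The exception, fraction 10 of MII gradient A, held 340 CPM of Plat. Across all genes that library correlated with the fraction 10 libraries of gradients B and C at r = 0.722 and 0.759, against 0.813 between B and C. These r values are across genes of one pair of libraries, and the part of this library's make-up in its Plat value was not tested.

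**Figure D2:**
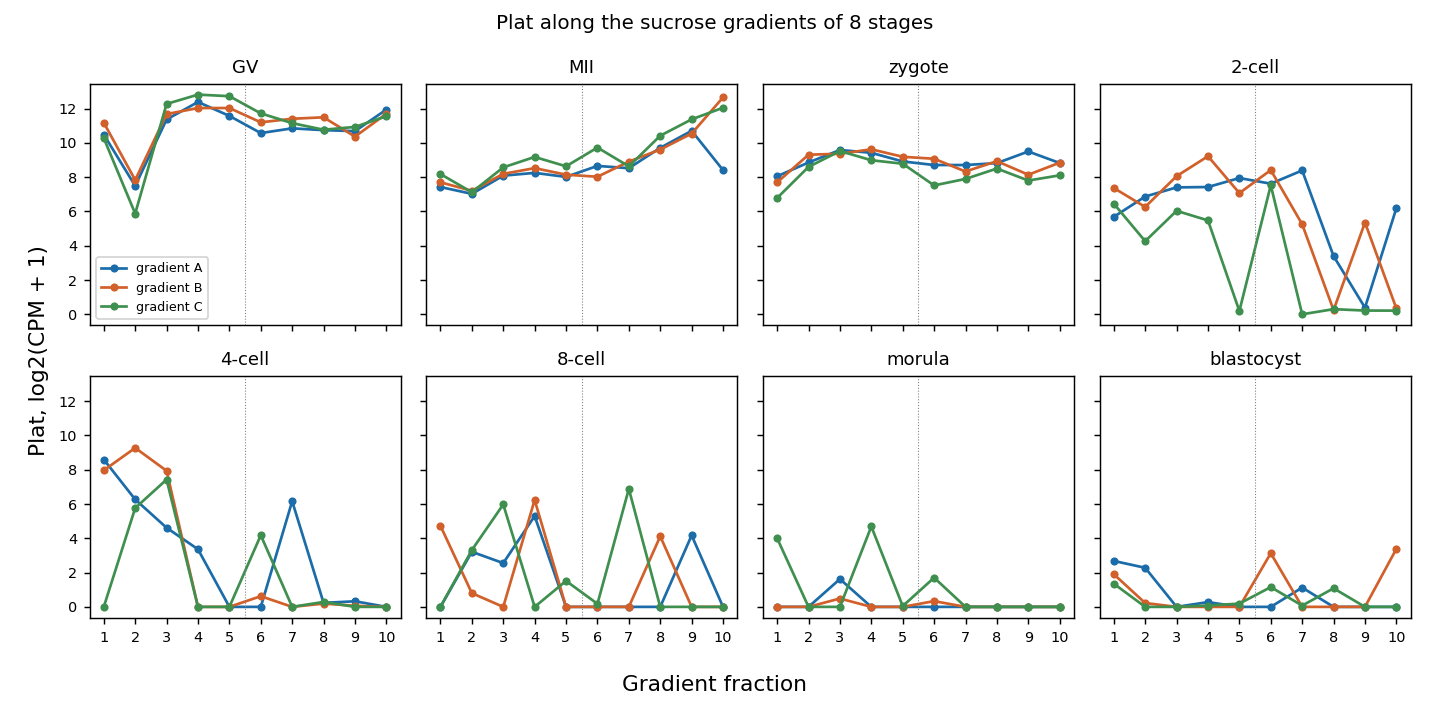
Plat along the 10 fractions of each gradient at 8 stages, as log2(CPM + 1) on the y axis; each line is 1 of the 3 gradients of a stage and the dotted line parts the light fractions 1 to 5 from the heavy fractions 6 to 10. GV gradients peak in fraction 4, MII gradients climb to fractions 9 and 10, zygote gradients peak in fraction 3 or 4, and from the 2-cell stage on single fractions at 0 or near 0 stand beside others well above them.

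The heavy share, which is the summed CPM of fractions 6 to 10 as a percentage of the sum over all 10 fractions, gives Plat's shift in 1 value per gradient. It was 45.7%, 47.0% and 37.9% in the GV gradients and 76.1%, 88.0% and 84.2% in the MII gradients. The gradients of both stages did not overlap, and the means were 43.6% ± 4.92 and 82.8% ± 6.04 (SD, n = 3). The median gene's heavy share moved the other way, from 54.5% ± 2.26 to 50.4% ± 2.04 (SD, n = 3), so Plat went from below the median gene to far above it. Fractions 3 to 5 held 43.5% to 58.1% of the summed Plat CPM in GV oocytes and 8.75% to 17.5% in MII oocytes. Fractions 9 and 10 held 15.2% to 24% in GV oocytes and 42.3% to 73.8% in MII oocytes. CPM is relative to each fraction's own library, and the amount of RNA in a fraction was not used, so these are shares of library composition and not of molecules.

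The mean fraction number, which is the average of the fraction numbers weighted by Plat's CPM in each, measures position without dividing the gradient. It was 5.85, 5.66 and 5.42 in GV gradients A, B and C, 7.13, 8.68 and 8.07 in MII gradients, and 5.60, 5.25 and 5.12 in zygote gradients. Plat stood at percentiles 45.7, 43.1 and 42.6 of all genes in the GV gradients and at percentiles 87.5, 98.4 and 94.7 in the MII gradients. In the zygote gradients it was back at percentiles 54.1, 41.4 and 40.0. The MII values lay above every GV and every zygote value.

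The fit across all genes and stages did not call this shift of Plat. From GV to MII the mean fraction number of Plat rose by 2.32 (SE 0.92), which put the change at percentile 97.8 of 11729 genes, with a limma p of 0.022 before and 0.417 after adjustment. Only 23 genes (0.196%) were called in that comparison, 2 of them (0.0171%) shifted to higher fractions. From MII to zygote Plat's mean fraction number moved by -2.63 (SE 0.92), with a limma p of 0.0107 before and 0.593 after adjustment, where 1 gene (0.0086%) was called. With 3 gradients against 3, an exact two-sided permutation test of one gene cannot give a p below 0.10.

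**Figure D3:**
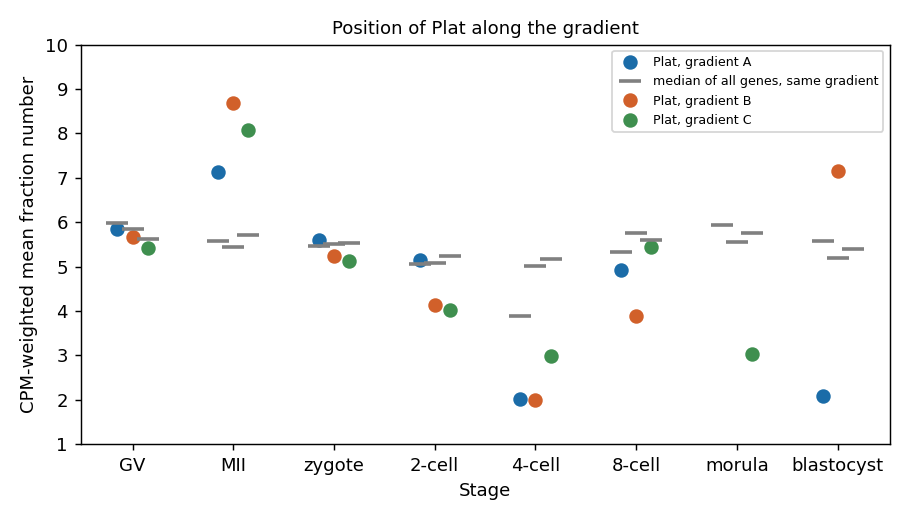
CPM-weighted mean fraction number of Plat (y axis) in each gradient of 8 stages; coloured points are gradients A, B and C and grey bars are the median of all genes in the same gradient. MII points lie at 7.13, 8.68 and 8.07, above the median gene, GV and zygote points lie near the median, and 4-cell points lie at 2.02, 2.0 and 3.0, below it.

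The contrast of heavy with light fractions gave the same picture in log2 units. Plat's mean over the light fractions was 2531, 2843 and 4048 CPM in the GV gradients and 227, 259 and 357 CPM in the MII gradients. Its mean over the heavy fractions was 2134, 2521 and 2473 CPM in GV oocytes and 723, 1892 and 1902 CPM in MII oocytes. Every MII value was below every GV value on both sides, and the fall was far larger on the light side. Heavy minus light was -0.38 in GV oocytes (SE 0.77, limma adjusted p = 1, 0.0725% of genes called) and 2.32 in MII oocytes (SE 0.77, adjusted p = 0.0981). In MII oocytes 3.23% of 15172 genes were called, 1.71% with more in the heavy fractions. Plat in MII was called when the fit held only the MII gradients (same difference, SE 0.36, limma adjusted p = 0.00114). That fit called far more genes in total than the main fit. The MII minus GV difference of these contrasts was 2.69 for Plat (SE 1.09), at percentile 99.7 of genes and not called, with a limma p of 0.0182 before and 0.921 after adjustment and 0.0725% of genes called higher.

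Fraction by fraction, the fall of Plat CPM between GV and MII oocytes was largest in fractions 3 to 5, on the light side. These CPM are relative to each fraction's own library. All 3 MII gradients lay below all 3 GV gradients in fractions 1 and 3 to 8. The mean was 11.5-fold lower in MII oocytes in fraction 3, 13.4-fold in fraction 4, 15-fold in fraction 5, 4.81-fold in fraction 6, 5.51-fold in fraction 7 and 2.12-fold in fraction 8. In fraction 9 the means were 1640 ± 317 and 1938 ± 625 CPM, and in fraction 10 they were 3428 ± 473 and 3679 ± 3094 CPM (SD, n = 3, GV first), with overlapping gradients in both. In fraction 2 the values also overlapped, at 155 ± 87.3 and 138 ± 8.53 CPM. Fraction 10 of MII gradients B and C, at 6450 and 4247 CPM, lay above every GV gradient, and that of MII gradient A, at 340 CPM, lay below every one. The heavy-fraction mean itself did not rise: its GV to MII change was -0.78 (SE 0.82, limma adjusted p = 0.831), and 4.06% of 14524 genes were called.

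**Figure D4:**
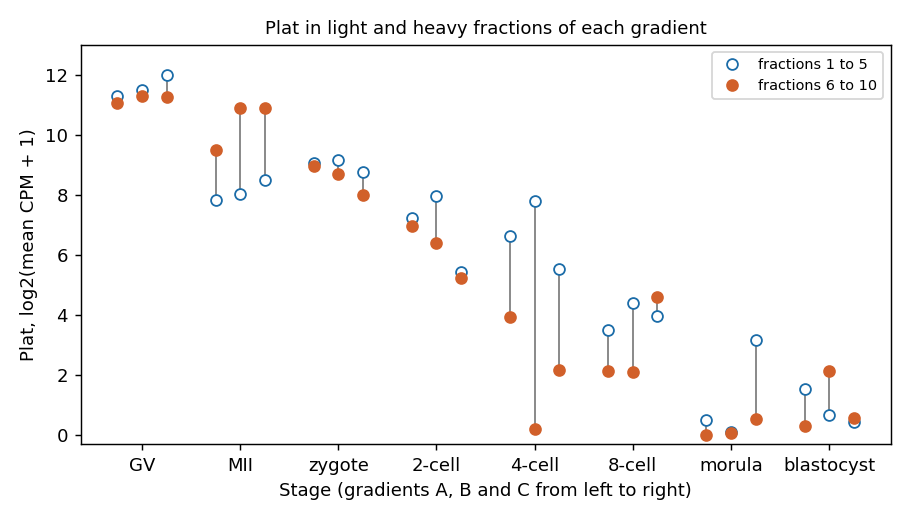
Plat in the light fractions 1 to 5 (open circles) and heavy fractions 6 to 10 (filled circles) of each gradient at 8 stages, as log2 of the mean CPM plus 1; lines join the sides of 1 gradient. In MII gradients the heavy side is above the light side by 1.67, 2.86 and 2.41, in GV and zygote gradients the light side is slightly higher, and in 4-cell gradients the light side is higher by at least 2.72.

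In zygotes the heavy enrichment of Plat was gone. Gradient A held 264, 463, 767, 685, 483, 418, 417, 451, 722 and 453 CPM in fractions 1 to 10. Gradient B held 206, 634, 659, 789, 583, 538, 321, 488, 282 and 459 CPM. Gradient C held 109, 387, 736, 507, 440, 182, 238, 362, 222 and 275 CPM. The peak was in fraction 3 or 4 in each, and the heavy share was 48%, 42.1% and 37.0%. Compared with MII oocytes, Plat was 9.30-fold lower in fraction 10, where MII gradient A overlapped the zygotes, 4.74-fold lower in fraction 9 and 2.30-fold lower in fraction 8. It was 3.58-fold higher in zygotes in fraction 2 and 2.29-fold higher in fraction 3, and all gradients of both stages were apart in fractions 2, 3, 5, 8 and 9. Mean Plat CPM was thus higher in zygotes than in MII oocytes in fractions 2 to 5 and lower in the heavy fractions, while the transcriptome level fell 5.69-fold. The change of the heavy-fraction mean was -1.87 (SE 0.82, limma adjusted p = 0.413, 1.49% of genes called), and of the alternatives run it was called only when the fit held MII and zygote gradients alone (SE 0.38, adjusted p = 0.0113). That fit called more genes in total than the main fit.

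In 2-cell gradients Plat was present in fractions 1 to 4 and 6 of all 3 gradients, but the peak fraction differed between them. It ranged from 0 to 596 CPM, and its peak was in fraction 7 in A (335 CPM), in fraction 4 in B (596 CPM) and in fraction 6 in C (183 CPM). Fractions 8 to 10 held no more than 72.0 CPM in any 2-cell gradient, and every 2-cell value there was below every zygote value. The heavy-fraction mean fell by 2.36 on the log2 scale from zygote to 2-cell (SE 0.82, limma adjusted p = 0.0454, 15.7% of genes called lower). These were 2282 genes lower and 741 higher, against 1428 and 1391 with quantile normalization. This call sat at the threshold, and it was lost with the replicate letter as a block (adjusted p = 0.0592) and without any 1 of 5 of the 6 gradients compared.

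In 4-cell embryos the highest Plat CPM was in fraction 1, 2 or 3 of each gradient. Gradient A held 387, 76.0, 23.5 and 9.27 CPM in fractions 1 to 4, gradient B held 249, 619 and 245 CPM in fractions 1 to 3, and gradient C held 53.4 and 171 CPM in fractions 2 and 3. Fraction 5 and fraction 10 were at 0 reads in all 3 gradients, and single heavy fractions held 70.7 CPM in A (fraction 7) and 17.1 CPM in C (fraction 6). Fraction 7 of A gave 545 of that gradient's 1011 reads of Plat, from a library deeper than those of fractions 1 to 4. The heavy share was 12.6%, 0.0654% and 7.16%. Heavy minus light was -4.56 (SE 0.77, limma adjusted p = 5.5e-05), where 12.9% of genes were called with more in the light fractions (1952 beside 516 with less, against 974 and 909 with quantile normalization). That call was lost with edgeR on recovered reads (adjusted p = 0.126) and when the fit held the 4-cell gradients alone (adjusted p = 0.215). The 2-cell to 4-cell change of the contrast was -3.88 (SE 1.09, limma adjusted p = 0.0156, 7.22% of genes called lower) and was lost without 4-cell gradient B (-2.35). The heavy-fraction mean fell by 4.10 (SE 0.82, adjusted p = 0.000405, 22.3% of genes called lower), and this call held without any 1 gradient. It was lost with edgeR (-3.10), DESeq2 (-2.80) and fractions 7 to 10 as heavy (-2.29).

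The median gene's heavy share was 16.1%, 40.8% and 44.3% in 4-cell gradients A, B and C, against 42.7%, 44.8% and 46.6% in the 2-cell gradients. Gradient A alone was far below the 2-cell values, while Plat's lowest heavy share was in gradient B, and the part of the median gene's shift in the Plat values was not tested. Plat was at percentiles 18.5, 10.3 and 19.2 of all genes by mean fraction number in the 4-cell gradients. The means over the 10 fractions were 64.1 ± 44.0 CPM in 4-cell gradients, far above the 2.50 ± 1.26 CPM of the 4-cell transcriptomes. Fraction 1 libraries of this stage were shallow, with 3 reads worth 7.05 to 16.8 CPM.

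In 8-cell gradients Plat was at 0 reads in 5 or 6 of 10 fractions, with peaks of 38.4 CPM in fraction 4 of A, 74.6 CPM in fraction 4 of B and 117 CPM in fraction 7 of C. Morula gradients held Plat in 1, 2 and 4 fractions, up to 24.8 CPM, and blastocyst gradients held at most 9.46 CPM. The heavy-fraction mean of Plat fell by 2.74 from 8-cell to morula (SE 0.82, limma adjusted p = 0.0418, 2.56% of genes called lower). The call was lost with the letter block (adjusted p = 0.0586), with only the groups compared (0.0526), with fractions 7 to 10 (-3.22), with the mean of log2 values (-0.89), and without 8-cell gradient C or any 1 morula gradient. Among the heavy fractions of the 8-cell gradients, Plat was above the level of 3 reads in 1 fraction each: fraction 9 of A (17.0 CPM), fraction 8 of B (16.4 CPM) and fraction 7 of C. Some fractions held Plat in more than 1 gradient, such as fraction 4 of 8-cell gradients A and B and fraction 1 of all 3 blastocyst gradients, at 5.41, 2.75 and 1.56 CPM.

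Plat's change in heavy fractions was also set against its change in the transcriptome in one model, which asks whether loading changed beyond abundance. None of the 7 steps was called for Plat by limma, and 2 had an unadjusted p under 0.05 (8-cell to morula, 0.00373, and morula to blastocyst, 0.0478). At GV to MII the difference was -0.86 (SE 0.77, adjusted p = 0.696, 8.22% of 15165 genes called) and at MII to zygote it was 0.65 (SE 0.77, adjusted p = 0.911, 2.28% called). The largest was -2.36 at the 8-cell to morula step (SE 0.77, adjusted p = 0.0549, 6.45% called), and that step alone was called with edgeR on recovered reads (-5.37, adjusted p = 0.00716).

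Other mRNAs described in the literature as activated during maturation were examined beside Plat, as a list of 13 genes chosen with earlier results of these data known. In the transcriptome 9 of the 13 rose from GV to MII and none fell, against 9.11% of all genes called higher, and the list's median change was 1.08 against -0.11 over all genes. The count was 4 with quantile normalization, where the median over all genes was 0.15, and 12 with edgeR or DESeq2 on recovered reads. Examples were Hprt, a purine salvage enzyme (1.47, SE 0.18, limma adjusted p = 5.88e-09), Slbp, which binds the histone mRNA stem-loop (1.36, SE 0.14, adjusted p = 7.65e-11), and Ccnb1, the cyclin of the maturation-promoting kinase (1.06, SE 0.17, adjusted p = 1.5e-06). Plat, with 0.07, and Mos, the kinase that holds the MII arrest, with 0.51 (SE 0.30, adjusted p = 0.159), were not called.

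Along the gradient, 12 of the 13 had a higher mean fraction number in MII than in GV oocytes, with a median change of 1.03 against -0.23 over all genes. None was called by limma, and 3 had an unadjusted p under 0.05. Plat's 2.32 was above that of each list member; next were Cnot7, a deadenylase (2.21, SE 0.53), Orc6, a replication origin factor (1.94, SE 0.71), and Tpx2, a spindle factor (1.61, SE 0.91). Dcp2, the decapping enzyme, had the only negative value (-0.94, SE 0.67). From GV to MII the heavy-fraction mean was called for 0 of the 13. Its median change was 0.16, against -0.13 over all genes. Set against the change in the transcriptome, 0 were called higher and 2 lower (Ccnb1 and Tpx2), against 6.94% and 1.27% of all genes. The median of this difference was -1.06, against 0.02 over all genes. With quantile normalization or edgeR, Ccnb1 alone was called lower. Within MII oocytes the heavy against light contrast called 5 of 13 with more in heavy fractions, against 1.71% of all genes. These were Slbp, Hprt, Cnot7, Orc6 and Ccnb1. In GV oocytes 0 of 13 were called, and all 13 were already above 0, with a median of 0.55 against 0.08 over all genes. The MII minus GV difference of this contrast was called for 0 of 13, with a median of 0.92 against -0.14 over all genes.

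**Figure D5:**
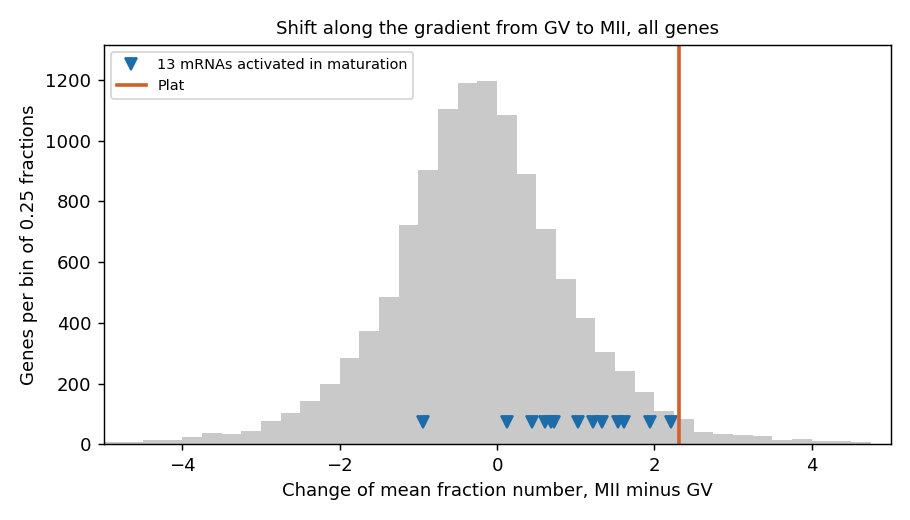
Change of the CPM-weighted mean fraction number from GV to MII (x axis) over all 11729 genes with a value, as a histogram in bins of 0.25 fractions (y axis: genes per bin; a few genes beyond the axis are not drawn). The line marks Plat at 2.32 and the triangles mark the 13 other mRNAs, 12 of them above 0.

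From MII oocytes to zygotes the mean fraction number rose in value for 9 of the 13 mRNAs and went down for 4 (Mos, Dazl, Cnot6l and Ccnb1), none of them called. The list's median change was 0.41, against 0.02 over all genes, of which 0.0086% were called. Slbp had a mean fraction number of 7.77 ± 0.81 in MII oocytes and 8.28 ± 0.13 in zygotes, and Cnot7 of 7.80 ± 0.70 and 8.21 ± 0.13 (SD, n = 3). Plat went from 7.96 ± 0.78 to 5.33 ± 0.25 and Mos from 6.87 ± 0.59 to 5.19 ± 0.59. Dcp2 was at 5.91 in zygotes, and the other 11 were at 6.49 or above; a difference between these genes and Plat was not tested. The transcriptome change of Mos from MII to zygote was -2.97 (SE 0.30, limma adjusted p = 1.49e-09), at a step where Plat fell by 2.52. Mos was the 1 member of 13 that was called lower there, against 4.48% of all genes, so the count is near that share. In zygotes 6 of 13 members were called with more in the heavy fractions, against 2.14% of all genes. Plat and Mos, with -0.45 and -0.25, were not among them.

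Mos was also close to Plat over the whole data set. By Pearson's r of the 8 stage means of log2(CPM + 1) in the transcriptomes, the genes most like Plat among 9500 were Smoc2 (0.999), Scfd1 (0.996), Rab3gap1 (0.994), Gtf2a1l (0.994) and Mos (0.993). By r over the 80 means of stage and fraction, the genes most like Plat among 14294 were Zc3h6 (0.940), Mos (0.938), Tbc1d8 (0.926), Pabpn1l (0.926), an embryonic poly(A)-binding protein, and Jade2 (0.924). Mos alone was in both sets of 5. These are descriptions over stage means that share the fall after fertilization, and most of the 5 did not share Plat's shift at MII. The mean fraction number changed from GV to MII by 0.28 for Zc3h6, -0.34 for Tbc1d8, 0.73 for Pabpn1l and -0.06 for Jade2, with SEs of 0.75, 0.82, 0.66 and 1.12.

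The partners of Plat in the plasminogen system were examined through the 9 measured genes of a list for that system; its other genes were not analysed here. The inhibitor Serpine2, or protease nexin-1, was the most abundant of them in oocytes. It rose from 570 ± 41.6 CPM in GV to 1520 ± 136 CPM in MII pools (SD, n = 4), a log2 change of 1.41 (SE 0.29, limma adjusted p = 8.34e-05). It was still at 1242 ± 166 CPM in zygotes (change -0.30, adjusted p = 0.543), and it fell at the 2-cell stage to 136 ± 26.1 CPM (change -3.19, SE 0.29, adjusted p = 1.18e-11). Serpini1, or neuroserpin, an inhibitor of tissue plasminogen activator, was at 157 ± 14.1 CPM in GV and 143 ± 29.9 CPM in MII pools. It fell in zygotes to 60.6 ± 9.01 CPM (change -1.21, SE 0.28, adjusted p = 0.00124), at the same step as Plat.

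From GV to MII the mean fraction number of neither inhibitor moved as far as that of Plat. Serpine2 had a mean fraction number of 6.76 ± 0.21 in GV, 6.51 ± 0.47 in MII and 6.39 ± 0.34 in zygote gradients (SD, n = 3). Serpini1 was at 7.07 ± 0.60, 7.33 ± 0.87 and 5.77 ± 1.60, lower in value in zygotes than in MII oocytes, as Plat was. The GV to MII changes were -0.25 (SE 0.89) and 0.26 (SE 0.87), neither called, against 2.32 for Plat; a difference between these genes was not tested.

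The second activator, Plau (urokinase), was at or near 0 where Plat was high: at most 0.0727 CPM in any GV pool and 0 reads in all MII pools. Its receptor Plaur was at 1.01 ± 0.569 CPM in GV and 0.332 ± 0.229 CPM in MII pools. Of the docking proteins, Anxa2 fell from 87.7 ± 5.73 CPM in GV to 9.90 ± 1.95 CPM in MII pools (change -3.04, SE 0.22, limma adjusted p = 3.34e-14). Its partner S100a10 held at most 0.131 CPM in any oocyte pool. The plasminogen receptor Plgrkt rose from 0.768 ± 0.686 to 2.42 ± 0.729 CPM and was the second of the list's 2 rises, while Anxa2 was its only fall. Over all genes 9.11% were called higher and 25.3% lower at this step. The list had 3 rises, with Lrp1 added, under quantile normalization or DESeq2 on recovered reads. The median change of the 9 genes was -0.03, against -0.11 over all genes.

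Serpine2 was still the most abundant member in zygotes and 2-cell embryos. In blastocysts, where Plat was at 0.905 ± 0.876 CPM, Anxa2 held the highest level of the list with 154 ± 25.1 CPM, S100a10 was at 108 ± 12.5 CPM, Plaur at 8.44 ± 2.66 CPM and Plau at 1.74 ± 0.425 CPM (SD, n = 4). At the 2-cell to 4-cell step, where Plat fell 11.1-fold, Anxa2, S100a10 and Plaur rose and Serpine2, Serpini1 and Lrp1, a clearance receptor for plasminogen activators, fell. These 3 rises and 3 falls among 9 genes are near the shares over all genes, of which 31.8% were called higher and 32.9% lower.

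Of 16 genes for cytoplasmic polyadenylation and mRNA storage, 4 rose and 4 fell from GV to MII, with a median change of -0.32 against -0.11 over all genes (0.12 for the list with DESeq2 on recovered reads). Over all genes 9.11% were called higher and 25.3% lower, so the share of falls was near that of all genes. Tent2, a cytoplasmic poly(A) polymerase, rose by 1.23 and Cpsf2, a subunit of the complex that reads the hexamer, by 1.14. Pabpc1l, the oocyte poly(A)-binding protein, changed by -2.03, Ybx2, a storage protein, by -2.40 and Cpsf4 by -3.88, and all 3 were called. Cpeb1, which binds elements such as those in Plat, changed by -0.62 (limma adjusted p = 0.0316), under the size required for a call. None of the 16 was called between light and heavy fractions in MII oocytes by limma, where 1 had an unadjusted p under 0.05, or by edgeR.

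Markers were checked in transcriptome pools. The summed level of 7 oocyte markers was 17517 to 20436 CPM in GV pools, 12482 to 15675 in MII pools and 7.80 to 12.6 in blastocyst pools. Granulosa and cumulus cells, which surround the oocyte in the ovary, were checked with 16 markers, of which 7 were measured: their summed level was 67.2 to 76.9 CPM in GV, 74.3 to 89.0 CPM in MII and 66.8 to 77.8 CPM in zygote pools, and their part in Plat's level was not tested. Of the more specific markers, Amhr2 was at 0 reads in all GV, MII and zygote pools, Fshr was at 2.45, 0.201 and 0.658 CPM, and Inha was at 1.40 CPM in GV and 0.406 CPM in MII pools. Amhr2, Fshr and Inha were the low members of the list. Most of the summed level in these pools came from the other measured markers. Transcriptome libraries held about 11231500 to 24263200 recovered reads and fraction libraries 10243 to 43212200, with 2 under 100000. The labels do not say that pools or gradients came from separate animals, so p-values measure the spread between these samples, which may be partly technical.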

How the data were processed

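The authors' deposited table holds CPM (reads of a gene scaled to the library total) for 15854 gene symbols in 272 libraries. Per the submitters' processing notes, Trim Galore 0.6.7, FastQC, HISAT2 2.2.1, featureCounts 2.0.1, edgeR and the GRCm39 build were used. Per the labels' protocols, libraries were made with the Smart-seq2 v4 kit, so reads were amplified without molecular identifiers, and floors cover counting error only. Of 159 symbols in 76 groups with identical values, 1 per group was kept. The 9 deposited columns whose sums pass the CPM total because of these repeats were recorded as signal and used as CPM. Whole reads were recovered in 271 of 272 libraries (100% of values whole within 0.05), and the remaining library, fraction 7 of 2-cell gradient B, was left out of count models. The 2-cell transcriptome columns carry other letters than the sample labels and were mapped to the stage without a letter.

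Tests used limma 3.58.1 (R 4.3.3; lmFit, eBayes with trend) on log2(CPM + 1) over genes that reached a CPM of 1 in at least the number of samples of the smallest group; all stages shared one estimate of the spread. Fractions were averaged per gradient before logs were taken, and the gradient was the replicate. Mean fraction numbers needed a summed CPM of at least 10. Alternatives were edgeR 4.0.16 and DESeq2 1.42.0 on recovered reads, a pseudocount of 0.1, no filter, quantile normalization, other heavy fractions, a letter block and left-out replicates. The labels do not say whether letters pair the stages. Same-letter correlations of deviations between neighbouring stages ran from -0.178 to 0.169 over 20 transcriptome pairs and from -0.0606 to 0.0912 over 21 heavy-fraction pairs. The same letter was the best partner in 5 of these transcriptome pairs and 10 of these heavy-fraction pairs. It was so for every letter at 4-cell to 8-cell in the transcriptomes and at morula to blastocyst in the heavy fractions. The sides of a gradient share their source (r from 0.00776 to 0.253 over 24 pairs). No sample differed from another of its group by less than sampling noise (lowest chi-square per degree of freedom over 286 pairs, 2.55). On simulated data with 200 genes changed 4-fold, limma called 100% of them in the transcriptome comparison (12096 genes) and 95.5% in the heavy-fraction comparison (12439 genes). The simulation drew each heavy-fraction value as 1 library with a fixed spread, not as a mean over fractions. That spread was not matched to the spread between the real gradients. The simulated shares therefore check the code and do not give the power of the tests on these gradients.

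Plat, the lists and the tests were chosen with earlier results of these data known. Named genes were Plat, members of the plasminogen list called from GV to MII or highest in blastocysts, the 13 maturation mRNAs, 16 polyadenylation genes and the 5 genes most like Plat by transcriptome or gradient pattern; other list members named were chosen after their values were seen. Transcript sequence came from GENCODE M21 (GRCm38).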

Additional observations from a re-analysis of the deposited data

Results flagged for a closer look

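Plat in the morula transcriptomes had 1 pool at 4.51 CPM, far from the other pools at 1.22, 1.43 and 1.64 CPM; the gap to its neighbour was 0.872 of the range of the 4 pools. Chance alone sets apart about 1 in 20 groups by this measure, and 8 stages were looked at. All 4 values are small, and the morula level is low with or without this pool.

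The contrast of heavy and light fractions differed between 2-cell and 4-cell gradients for Plat, by -3.88 on the log2 scale (SE 1.09, limma adjusted p = 0.0156). The 2-cell contrasts were -0.29, -1.55 and -0.21 in gradients A, B and C, and the 4-cell contrasts were -2.72, -7.61 and -3.36. Without 4-cell gradient B, the difference was -2.35 and no longer passed the test. The heavy share of the median gene was 16.1%, 40.8% and 44.3% in 4-cell gradients A, B and C, against 42.7% to 46.6% at the 2-cell stage, and its part in the Plat value was not tested.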

How the results depend on the processing

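Of 625 values of 43 Plat results under other settings, 558 kept direction and call, 24 lost a call, 21 gained one and 22 changed sign; all but 1 of the sign changes joined values without a call. The falls of Plat in the transcriptome from MII to 4-cell held under every setting run. The GV to MII rise of the mean fraction number ranged from 1.84 to 2.73 and was called under none. In each group below, the cause was not tested.

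With edgeR on recovered reads, the morula to blastocyst transcriptome change was called (-1.47; DESeq2 -1.49; pseudocount 0.1 -1.71). The heavy-fraction changes lost their call at zygote to 2-cell (edgeR -2.08, DESeq2 -1.85) and 2-cell to 4-cell (-3.10, -2.80), as did the 4-cell heavy against light contrast (edgeR -2.95). The 8-cell to morula change beyond the transcriptome was called with edgeR (-5.37), pseudocount 0.1 (-4.44), quantile normalization (-2.33) and fractions 6 to 9 (-2.59). With only the groups compared, MII to zygote in heavy fractions (-1.87) and heavy against light in MII (2.32) gained a call, and 8-cell to morula in heavy fractions (-2.74) and heavy against light in 4-cell gradients (-4.56) lost it. With pseudocount 0.1 (-2.37) or fractions 6 to 9 (-2.09), zygote to 2-cell in heavy fractions lost its call. With fractions 7 to 10, 2-cell to 4-cell (-2.29) and 8-cell to morula (-3.22) lost it and heavy against light in 2-cell gradients gained it (-3.13). With the mean of log2 values over fractions, the last was -2.79 and called, and 8-cell to morula was -0.89 and not called. The mean fraction number was called with a summed CPM of at least 50 at 2-cell to 4-cell (-2.09) and 4-cell to 8-cell (2.41), and with fractions 1 to 9 (-2.0 and 2.41).

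Signs changed for 4-cell to 8-cell in heavy fractions (quantile -0.28, DESeq2 -0.66), heavy against light in GV (mean of log2 values 0.34) and in blastocysts (fractions 7 to 10 -0.045, fractions 6 to 9 -0.0079), and the zygote to 2-cell difference of sides (fractions 6 to 9, 0.029). Beyond the transcriptome they changed at zygote to 2-cell (fractions 7 to 10 -1.35; mean of log2 values -1.46, called), at 2-cell to 4-cell (quantile 0.75, fractions 7 to 10 0.80, mean of log2 values 0.31, edgeR 1.14) and at 4-cell to 8-cell (quantile -0.65, edgeR -0.97).

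Without 1 pool or gradient each, the values with a changed call or sign ranged as follows. The morula to blastocyst transcriptome change ranged from -1.02 (called without blastocyst pool A) to -0.47. In heavy fractions, zygote to 2-cell ranged from -2.73 to -1.88 (not called without zygote A, B or C or 2-cell B or C), 4-cell to 8-cell from -0.096 (without 4-cell B) to 1.77, and 8-cell to morula from -3.17 to -1.91 (not called without 8-cell C or any morula gradient). Heavy against light in blastocysts ranged from -0.55 (without B) to 0.81. The change of this contrast ranged from -0.48 to 0.20 at zygote to 2-cell (positive without 2-cell B), -4.80 to -2.35 at 2-cell to 4-cell (not called without 4-cell B), 2.03 to 4.48 at 4-cell to 8-cell (called without 4-cell A or C) and -0.70 to 0.78 at 8-cell to morula (positive without 8-cell C or morula C). Beyond the transcriptome, 2-cell to 4-cell ranged from -1.92 (called without 4-cell A) to -0.056, 4-cell to 8-cell from -0.31 (without 4-cell B; also negative without 8-cell C) to 1.55, and 8-cell to morula from -2.79 to -1.53 (called without 8-cell A or B). The morula to blastocyst change of the mean fraction number ranged from -0.95 (without blastocyst B) to 4.13.

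With the letter as a replicate block, heavy-fraction Plat lost its call in limma at zygote to 2-cell (-2.36, adjusted p = 0.0592) and 8-cell to morula (-2.74, adjusted p = 0.0586). No other call changed, and the labels do not say that letters pair the stages. With the gradient as a replicate block, no heavy against light call changed. Counts over all genes moved with only the groups compared: heavy against light in MII 2204 against 490, in GV 285 against 11, in zygotes 2092 against 456, in 4-cell gradients 0 against 2468, and heavy fractions from GV to MII 2588 against 589. With edgeR they were 143, 4, 97, 2304 and 152. The later heavy-fraction counts were 766 (edgeR 46) against 216 at MII to zygote, 1904 against 3023 at zygote to 2-cell, 2446 against 5495 at 2-cell to 4-cell and, with edgeR, 634 against 1159 at 8-cell to morula. Beyond the transcriptome they were 3127 against 1246 at GV to MII, 1121 against 346 at MII to zygote and, with edgeR, 1573 against 978 at 8-cell to morula. In the transcriptomes edgeR called 6908 genes at GV to MII, 2196 at MII to zygote, 5956 at zygote to 2-cell and 10440 at 2-cell to 4-cell, and at 4-cell to 8-cell 571 against 380 (147 with only these groups). Depth limits the blastocyst transcriptome value of Plat, where 3 reads are worth up to 0.183 CPM.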

Other observations

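The mean CPM of Plat over the 10 fractions, set against its mean in the transcriptome pools of the same stage, was 1.59 ± 0.27 in GV, 0.49 ± 0.20 in MII and 1.40 ± 0.29 in zygote gradients (SD, n = 3). The fractions of MII gradients thus held less Plat CPM than the pools did, while GV and zygote fractions held more. At the 2-cell stage the ratio was 4.09 ± 2.36 and at the 4-cell stage 25.6 ± 17.6.

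Over genes whose transcript ends with a hexamer, those with at least 1 TTTTAAT or TTTTAT in the last 150 bases (2010 genes with a position) had a median GV to MII change of the mean fraction number of 0.14. The median was 0.29 for the 411 genes with 2 or more and -0.27 for the 5883 genes without, and Plat, with 2, was at 2.32. Among 10 of the 13 maturation mRNAs with a hexamer, 4 held such a motif (Ccnb1, Bub1b, Orc6 and Dcp1a). These medians are a description with no test.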
